A study of Danio rerio with 12 samples.

Results

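The effect of the Cxcr4 inhibitor AMD3100 on neutrophils was followed in zebrafish larvae with a spinal cord lesion, by comparing 3 injured AMD3100 libraries with 3 injured DMSO libraries, 6 of the 12 libraries of the series. All 31263 entries of the count table that are not ERCC spike-ins, of 31351 in all, entered the comparison, and no measured value was used to choose them. The cells were sorted by GFP from dissociated trunks of mpx:GFP larvae, in which regulatory sequence of the myeloperoxidase gene drives GFP in neutrophils. The cord was transected at 3 days post-fertilization. The injured AMD3100 group received 25 uM AMD3100 with 0.1% DMSO from 4 to 8 hours post-injury, when cells were collected, and the injured DMSO group received DMSO at a concentration not given in the sources used here. Each library came from 2500 to 4800 sorted cells by an adapted CEL-seq protocol, which counts the ends of polyadenylated transcripts, and each group had 3 libraries that the labels call biological replicates. The uninjured AMD3100 and uninjured DMSO groups, also 3 libraries each, came from larvae of the same transgenic line without a lesion. The uninjured AMD3100 group likewise received 25 uM AMD3100 with 0.1% DMSO. The age of the uninjured larvae and their times of treatment and collection are not recorded here.

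Cxcr4 is a G protein-coupled receptor for the chemokine Cxcl12 and holds neutrophils in blood-forming tissue and at sites of injury. AMD3100, also called plerixafor, is a small molecule that occupies the receptor and blocks the ligand. Neutrophils are short-lived cells with granules of peroxidase, lysozyme and proteases, and at a wound they also release cytokines that act on other cells.

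The 3 AMD3100 libraries differed from each other more than the 3 DMSO libraries did. They held 655451, 5730412 and 12173133 counts in replicates 1 to 3, against 2702372, 10553025 and 5770543 in DMSO, and the uninjured libraries held 1697395 to 11511635. On log2 CPM (counts per 1e6 counts of the library) over the 8453 tested entries, Pearson's r was 0.93 to 0.96 between DMSO libraries. Between AMD3100 libraries r was 0.93 for replicates 2 and 3, and lower only for the pairs with replicate 1 (0.835 and 0.843). AMD3100 replicate 3 correlated with DMSO libraries at 0.94 to 0.96, replicate 2 at 0.91 to 0.93 and replicate 1 at 0.82 to 0.84. These are correlations across genes, which are not independent replicates. Mitochondrial ribosomal RNA took 7.006%, 0.7676% and 17.99% of counts in AMD3100 replicates 1 to 3 and 11.09%, 15.19% and 9.068% in DMSO, so both the lowest and the highest share belonged to AMD3100. The transgene EGFP stood at 396.7, 1529 and 1326 CPM before TMM scaling, and at 1393 to 1511 in DMSO. Replicate 1 was the shallowest library and had the lowest EGFP, where 1 count was worth 1.53 CPM. Every value below that rests on replicate 1 is therefore coarser than the others.

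The receptor and ligand were at the limit of detection. The entry that holds cxcr4b, which also holds the overlapping gene CR522881.1, had 7, 4 and 0 counts in DMSO and 4, 1 and 5 in AMD3100. Its paralog cxcr4a had 4, 5 and 5 counts in DMSO and 0, 7 and 17 in AMD3100, too few to be tested. The ligand genes reached at most 43 counts for cxcl12a and 5 for cxcl12b in any of these libraries, and the scavenger receptor ackr3b had 1 count in 1 DMSO library. A difference in these genes was not detectable at this depth.

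The genes mpx, lyz, mmp9 and il1b were high in both groups, with ranges that overlapped. Some other neutrophil genes, given below, did not overlap. The peroxidase mpx stood at 1564, 940.1 and 1560 scaled CPM in DMSO and at 1395, 992.2 and 1878 in AMD3100, a log2 fold change of 0.07 (SE 0.31). The lysozyme lyz stood at 2649, 1658 and 2826 scaled CPM in DMSO and at 10480, 2376 and 2219 in AMD3100 (log2 fold change 1.08, SE 0.50). Its higher mean came from replicate 1, and without that library the log2 fold change was -0.042. The gelatinase mmp9 stood at 3070, 2153 and 2799 in DMSO and at 3856, 2778 and 1823 in AMD3100 (log2 fold change 0.08, SE 0.34). The cytokine il1b was at 270.9 to 291.6 scaled CPM in DMSO and at 276.2, 271.5 and 198.5 in AMD3100 (-0.18, SE 0.25). The chemokine receptor cxcr1 (-0.075), arginase arg2 (-0.12) and heme oxygenase hmox1a (0.58) overlapped between groups as well, and cxcr2 and tnfa had at most 5 counts in a library. Across 34 tested genes of neutrophil identity, 20 had a positive log2 fold change, beside 49.7% of all tested entries, and the median was 0.054, beside -0.00395 over all. Without replicate 1 the median was -0.077, with 15 of 34 positive, and with quality weights it was -0.0085. By library, as log2(scaled CPM + 1) against the DMSO mean, the median was -0.113, -0.193 and -0.0438 in AMD3100 replicates 1 to 3.

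With edgeR's quasi-likelihood test and a Benjamini-Hochberg adjusted p under 0.05, 0 of 8453 entries (0%) differed between injured AMD3100 and injured DMSO, and the smallest adjusted p was 0.615. At an unadjusted p under 0.05 there were 466 (5.51%), 216 higher (2.56%) and 250 lower (2.96%). DESeq2 called 1 gene (0.0118%), stxbp5a, and limma-voom called 0 with and without quality weights. The median standard error of a log2 fold change was 0.45 and the median size of a change was 0.32. In simulated counts with these depths the test recovered 6.06% of genes given a log2 change of 1, 54.0% of those given 2 and 81.7% of those given 3. Changes of 1 were therefore rarely detectable with these libraries. The changed genes came from entries expected to hold at least 10 counts at the median depth, so the rates do not cover lower entries. Every simulated library had the same spread per gene, so an outlying library such as AMD3100 replicate 1 was not simulated. In 394 entries (4.66%) all 3 AMD3100 libraries lay above all 3 DMSO libraries, and in 479 (5.67%) they lay below. In this edgeR fit no gene named in the next paragraphs passed the adjusted threshold, and their values are given as measured. Without the filter on low counts the same test called 105 of 20264 entries (0.518%), among them stxbp5a, rab10, il11b and myl13. The smallest edgeR adjusted p there, 3.04e-19, was that of the muscle gene pvalb4. Of the 105, 7 belonged to the muscle list described below.

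Among genes that lay lower in AMD3100 without overlap, the smallest p belonged to stxbp5a (ENSDARG00000002656), a homolog of tomosyn, which binds SNARE proteins and restrains vesicle release. It stood at 70.71, 35.02 and 59.44 scaled CPM in DMSO and at 11.21, 8.05 and 17.76 in AMD3100 replicates 1 to 3. Replicate 3 was the highest of the AMD3100 libraries, and the value of replicate 1 rests on 8 counts. The log2 fold change was -2.11 (SE 0.39, edgeR adjusted p = 0.615). DESeq2 called this gene (adjusted p = 0.00317), and over the alternatives its adjusted p ran from 1.4e-05 to 1. In uninjured larvae the log2 fold change of stxbp5a with AMD3100 was -0.65, and the difference between the effects, -1.46 on the log2 scale, had an edgeR adjusted p of 1.

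The cytokine gene il11b (ENSDARG00000058557), a member of the interleukin-6 family, stood at 45.48, 48.02 and 21.31 scaled CPM in DMSO and at 2.80, 1.01 and 14.32 in AMD3100. Replicates 1 and 2 held 2 and 7 counts of it and replicate 3 held 175, so the 3 libraries were below DMSO by different amounts. The log2 fold change was -2.45 (SE 0.67, edgeR adjusted p = 0.901). Without a lesion il11b stood at 3.81, 5.86 and 5.82 in DMSO and at 5.39, 10.23 and 15.26 in AMD3100, a log2 fold change of 0.99. The difference between the effects was -3.43 on the log2 scale (SE 0.97, edgeR adjusted p = 1 over all genes).

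The other named genes with lower values covered trafficking, signalling and the cell cycle. The small GTPase gene rab10, which directs vesicle transport, stood at 500.9, 508.4 and 367.1 in DMSO and at 64.49, 51.89 and 235.7 in AMD3100 (log2 fold change -1.94, SE 0.53). Its replicate 3 lay much nearer to DMSO than the other AMD3100 libraries. The G1 cyclin ccnd1 stood at 282.2, 171.8 and 143.4 in DMSO and at 36.45, 84.80 and 92.17 in AMD3100 (-1.45, SE 0.37). The kinase prkcea, a protein kinase C, stood at 58.09, 27.24 and 38.45 and at 9.81, 6.18 and 21.69 (-1.64, SE 0.42). Smaller and more even differences were found in slc25a44b, a mitochondrial carrier that in mammals moves branched-chain amino acids, and in pafah1b1a, a homolog of the dynein regulator LIS1. The first stood at 32.63 to 46.47 scaled CPM in DMSO and at 13.22 to 19.63 in AMD3100 (-1.23, SE 0.29). The second stood at 40.50 to 58.00 and at 15.42 to 27.74 (-1.14, SE 0.30).

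Of the genes in this paragraph, which the rule chose for lying higher without overlap, the cathepsin ctsz (ENSDARG00000043081), a lysosomal carboxypeptidase, was the most even. It stood at 45.81, 41.21 and 47.75 scaled CPM in DMSO and at 88.32, 76.75 and 82.68 in AMD3100, a log2 fold change of 0.87 (SE 0.23, edgeR adjusted p = 0.901). The 3 AMD3100 libraries were close together, and lying clear of DMSO was part of the choice. In uninjured larvae ctsz had a log2 fold change of -3.71e-04 (edgeR adjusted p of the difference 1). The protease legumain, lgmn, which matures cathepsins, stood at 18.26, 11.50 and 15.70 and at 29.44, 52.75 and 35.61 (1.41, SE 0.45). This gene is also a member of the macrophage marker list described below. The prenyl synthase gene ggps1, which makes the lipid anchor of many small GTPases, stood at 28.55, 21.76 and 15.06 and at 51.87, 57.92 and 36.18 (1.16, SE 0.32). For slc35f6 (1.27) and aldh16a1 (1.56), a carrier family member and an aldehyde dehydrogenase family member, replicate 1 was far above the rest: slc35f6 stood at 84.11, 37.23 and 30.70 in AMD3100. The muscle myosin light chain myl13 stood at 11.21, 2.44 and 46.90 in AMD3100 and at 0.62 to 1.12 in DMSO (4.72, SE 1.5). It is a member of the muscle list described below.

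**Figure D1:**
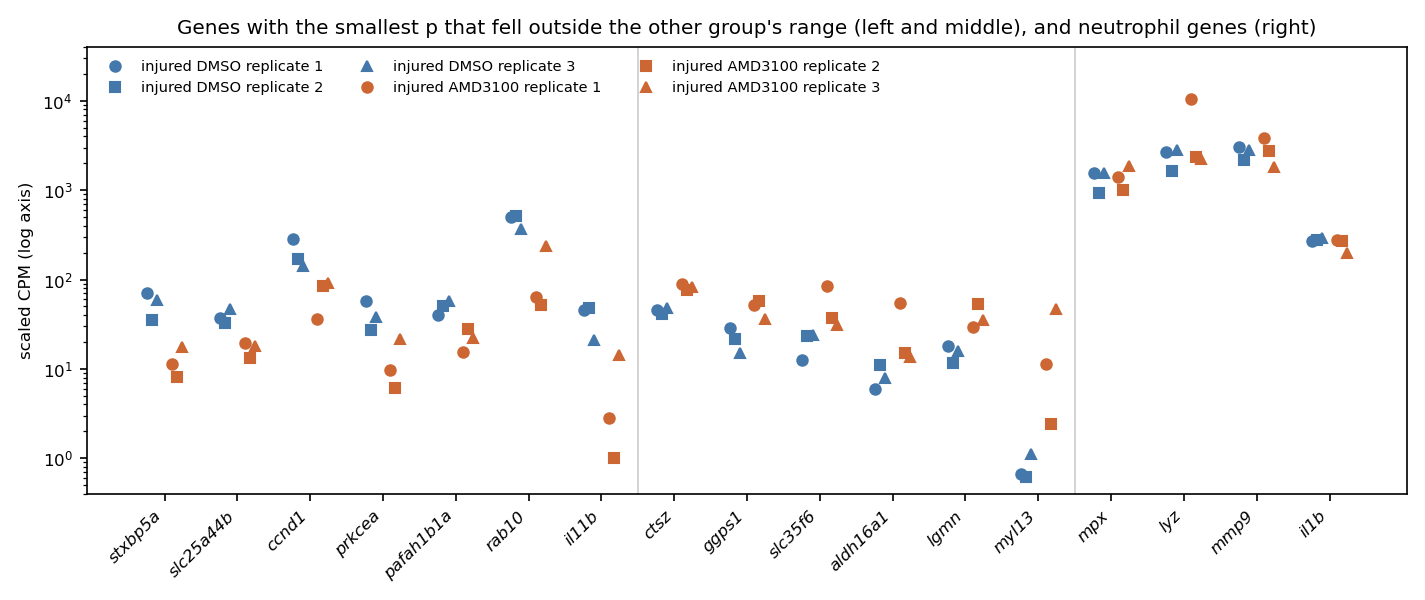
TMM-scaled CPM (log axis) of named genes in each injured DMSO (blue) and injured AMD3100 (orange) library, 1 symbol per library and no error bars, in 3 blocks: lower in AMD3100, higher in AMD3100, and neutrophil genes. The rule chose the first 13 genes for not overlapping; in stxbp5a the 3 orange symbols lie between 8.05 and 17.76, while in rab10 replicate 3, at 235.7, lies far above the other orange symbols.

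The 3 AMD3100 libraries were then each set against the DMSO libraries. Entries at least 1 log2 unit beyond all 5 other injured libraries numbered 506 higher and 1132 lower in AMD3100 replicate 1, 25 and 162 in replicate 2, and 16 and 6 in replicate 3. The DMSO libraries, counted the same way, had 78 and 59, 12 and 5, and 21 and 22. Replicate 1 stood apart in both directions, replicate 2 mainly downward, and replicate 3 no more than a DMSO library. After every library was thinned to the depth of replicate 1, the counts were 485 and 803, 74 and 295, and 92 and 197 for AMD3100, and 60 to 155 higher and 171 to 233 lower for DMSO. Replicate 2 was then closer to the DMSO libraries, and replicate 1 still stood apart.

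**Figure D2:**
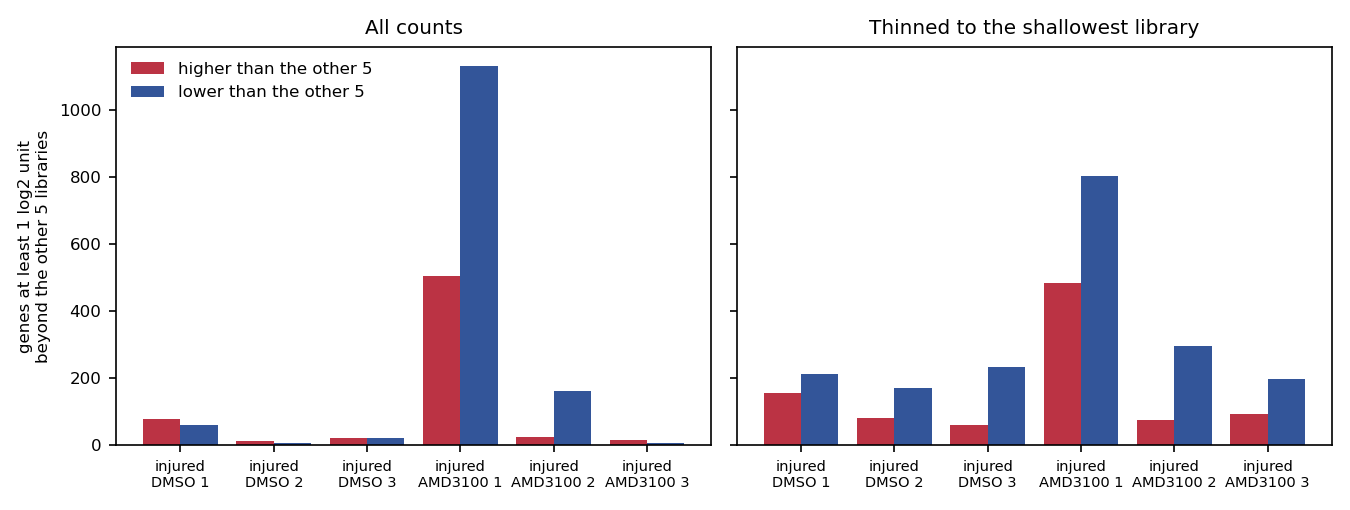
Number of tested entries lying at least 1 log2 unit above (red) or below (blue) all 5 other injured libraries, for each library, with all counts and after thinning to the shallowest library; counts have no error bars. AMD3100 replicate 1 reaches 506 and 1132 with all counts and 485 and 803 after thinning.

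The size of the departure from DMSO followed the same order. Among 2945 entries with a mean of at least 20 scaled CPM in DMSO, 543, 195 and 6 lay at least 1 log2 unit below all DMSO libraries in AMD3100 replicates 1 to 3, and 183, 7 and 3 lay that far above. These entries were chosen by their DMSO level alone, so an entry high only in AMD3100 could not enter. The choice favours falls, and the counts below and above are not a balanced comparison. The standard deviation of the log2 difference over the 2945 entries was 1.08, 0.725 and 0.353. A DMSO library against the mean of the other DMSO libraries gave 0.392 to 0.466. The value of replicate 3 lay below that range, although a mean of 3 libraries is also a steadier reference than a mean of fewer.

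In replicate 1 the highest genes by the naming rule included brk1, a subunit of the actin-regulating WAVE complex, and dcp1a, an mRNA decapping factor. The level of brk1 was 8232 scaled CPM against 431.6 to 1269 in the other injured libraries, and that of dcp1a 2661 against 19.87 to 129.8. Among the lowest were glipr1a, at 15.42 against 140.4 to 221.9, and the interferon gamma receptor ifngr1, at 7.01 against 53.04 to 108.9. These values rest on 11 and 5 counts in replicate 1.

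In replicate 2 the highest genes included the embryonic globin hbbe1.3, at 67.26 scaled CPM against 1.60 to 22.43 in the others, the interferon-induced membrane protein gene ifitm1, at 113.4 against 33.25 to 51.12, and rpl10, a protein of the large ribosomal subunit, at 9204 against 550.9 to 3955. The lowest entry was the mitochondrial ribosomal RNA entry NC_002333.4, at 5449 against 63120 to 175600. Others were ago4, an Argonaute protein of small RNA silencing, at 2.44 against 28.04 to 84.44, and ccni, a cyclin family member, at 4.60 against 30.84 to 103.2. In replicate 3 the polyadenylation factor cpsf6 was among the highest at 195.4 against 70.71 to 91.01, and itln1, a lectin of the intelectin family, was among the lowest at 24.64 against 49.06 to 61.95.

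Leaving out AMD3100 replicate 3 was the one removal of a single injured library that produced calls. With AMD3100 replicates 1 and 2 against the 3 DMSO libraries, 72 of 8723 entries (0.825%) had an edgeR adjusted p under 0.05, 70 lower (0.802%) and 2 higher (0.0229%). Without any other injured library the count was 0, with the smallest adjusted p between 0.287 and 1. The 70 were chosen by these libraries, so their low level in replicates 1 and 2 is the choice itself. The DMSO values that serve as the reference for replicate 3 were part of that choice. The uninjured libraries formed no part of the contrast, but they were in the fit that set the spread.

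The genes of the 70 named here, apart from those the rule had chosen, were picked after their values were seen. The zinc finger gene znf292b stood at 82.00, 82.86 and 80.27 scaled CPM in DMSO and at 9.81, 7.62 and 122.3 in AMD3100. The Mediator subunit med1 stood at 336, 162 and 202 in DMSO and at 30.8, 9.34 and 237 in AMD3100, and the chromatin remodeller chd7 at 911.9 to 1019 in DMSO and at 224.3, 108.1 and 1231. In all of these replicate 3 was at or above most DMSO libraries while replicates 1 and 2 were several-fold lower. The kinase rock1, which drives actomyosin contraction, stood at 301, 227 and 324 in DMSO and at 28.0, 27.0 and 409 in AMD3100. The focal adhesion protein gene zyx stood at 78.4 to 97.6 in DMSO and at 16.8, 6.18 and 60.6. The ubiquitin ligase cbl, which switches off receptor signalling, stood at 174 to 188 and at 25.2, 5.32 and 136, below DMSO in all 3 libraries. The survival gene bcl2a stood at 16.0 to 19.2 and at 1.40, 0.719 and 13.5, where the values of replicates 1 and 2 rest on 1 and 5 counts. The rule-named genes stxbp5a, prkcea, rab10, il11b and plcg2 were among the 70. The gene bcl2a was also named by the rule, as were plcg2 and il11b, for the smallest p of a gene list. The 2 higher genes were arl8ba, a lysosomal GTPase, and vapal, a membrane contact protein.

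Over the 70 genes the median log2 difference from the DMSO mean was -2.34, -2.74 and -0.299 in AMD3100 replicates 1 to 3. In replicate 3, 34 of the 70 lay below all DMSO libraries and 10 above, beside 20.9% of all tested entries that lay below. The share of all tested entries that lay above was not counted, so the 10 have no reference. In uninjured AMD3100 replicates 1 to 3, which share no library with the injured comparison, the medians were -1.24, -0.629 and -0.660 from the same injured DMSO mean, and in uninjured DMSO they were between -0.0464 and 0.00777. With AMD3100 in uninjured larvae 65 of the 70 had a negative log2 fold change, beside 47.1% of all tested entries, with a median of -0.706. In 34 of the 70 all uninjured AMD3100 libraries lay below all uninjured DMSO libraries, beside 6.02% of all tested entries. At an unadjusted edgeR p under 0.05, 17 of the 70 differed there, beside 5.12% of all tested entries. The spread used to choose the 70 included the uninjured groups, so genes with little spread there were favoured, which can raise both counts. The shares over all entries are therefore not a matched reference, and the 70 genes are not independent replicates. The difference between the effect in injured and in uninjured larvae, fitted without replicate 3, had an edgeR adjusted p under 0.05 in 2 genes, znf292b and il11b (adjusted p = 0.0340 each). With all libraries it was called in 0 of 8453 entries (0%), with 265 at an unadjusted p under 0.05 (3.13%).

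Mitochondrial ribosomal RNA also differed between these libraries. Its share was 0.7676% in AMD3100 replicate 2 and 7.006% in replicate 1, where the 70 genes were lowest among the injured libraries. It was 6.176%, 11.17% and 9.696% in uninjured AMD3100, and 9.068% to 21.53% in the DMSO libraries of both conditions. Injured DMSO replicate 3 had 9.068% with a median of 0.0106 over the 70 genes, and uninjured AMD3100 replicate 2 had 11.17% with -0.629. The uninjured DMSO libraries had 16.31% to 21.53%, with medians between -0.0464 and 0.00777. In injured AMD3100 replicate 3 the share was 17.99%, with a median of -0.299. The part of mitochondrial ribosomal RNA in the result was not tested.

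**Figure D3:**
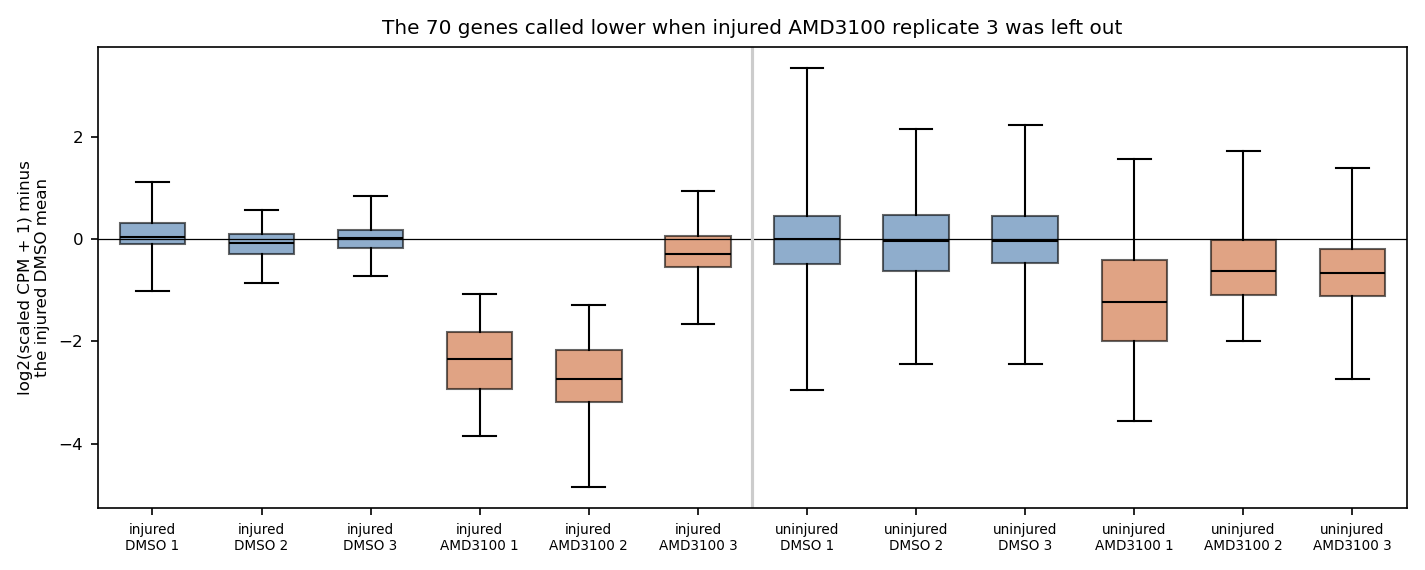
Level of the 70 genes called lower without injured AMD3100 replicate 3, as log2(scaled CPM + 1) minus the mean of the injured DMSO libraries, in all 12 libraries. Boxes span the quartiles over genes, lines mark medians and whiskers reach the extremes; the genes were chosen for the 2 low injured AMD3100 boxes, the uninjured AMD3100 medians run from -1.24 to -0.629 and that of injured AMD3100 replicate 3 is -0.299.

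The gene lists were next read by group. Genes of ribosomal proteins, which build the translation machinery, lay higher more often than all entries did: 58 of 77 tested members had a positive log2 fold change, 13 lay above all DMSO libraries and 0 below, and the median was 0.19, which was 0.12 without replicate 1 and 0.30 without replicate 3. The background for no overlap upward was 4.66%. Together they took 11.2%, 9.97% and 11.4% of counts in DMSO and 12.7%, 14.1% and 11.6% in AMD3100, without overlap (exact two-sided permutation p = 0.1, the smallest that 3 against 3 libraries allow, and adjusted p = 1 over 37 lists). Of the 37 lists, 1 had a higher and 2 a lower share in all AMD3100 libraries than in any DMSO library. Of all tested entries, 4.66% lay higher and 5.67% lower without overlap, on scaled CPM. The order of the ribosomal shares held with mitochondrial genes left out of the total and without replicate 1. The member rpl38 stood at 178 to 191 scaled CPM in DMSO and at 728, 226 and 209 in AMD3100 (log2 fold change 1.05), and rpl18 at 513 to 532 and at 562 to 626 (0.17). In members such as rpl38, rpl7a and rpl35a replicate 1 was far above the other AMD3100 libraries, which were just above DMSO. The share in uninjured AMD3100 libraries was 13.1%, 13.9% and 14.7%, against 12.7%, 11.5% and 11.6% in uninjured DMSO.

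Nuclear genes of oxidative phosphorylation, the subunits of the respiratory chain and ATP synthase, had a positive log2 fold change in 55 of 72 members, with 6 above all DMSO libraries, 1 below (4.66% and 5.67% over all entries) and a median of 0.23, which was 0.11 without replicate 1. The ATP synthase subunit atp5f1c stood at 417.6, 563.3 and 544.4 in DMSO and at 1123, 673.7 and 710.2 in AMD3100 (0.71, SE 0.26), and the complex I subunit ndufb9 at 140 to 160 and at 437, 173 and 176. Replicate 1 was again the highest. The 15 mitochondrially encoded entries went the other way, with 4 positive and a median of -0.28, which was -0.079 without replicate 1, and their shares of counts overlapped.

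Lysosome and phagocytosis genes had a positive log2 fold change in 35 of 52 members, with 5 above all DMSO libraries (4.66% over all entries), 0 below and a median of 0.20. The median turned to -0.095 without AMD3100 replicate 2 and was 0.44 without replicate 3. Besides ctsz, the cathepsin L gene ctsla stood at 76.3, 62.7 and 47.4 in DMSO and at 98.1, 109 and 91.8 in AMD3100 (0.68, SE 0.35). Markers of macrophages, phagocytes that share many genes with neutrophils, had 15 of 18 tested members positive, 6 above all DMSO libraries (4.66% over all entries), 0 below and a median of 0.65. After thinning, the 7 members still tested had a median of 0.19. By library the list median against the DMSO mean was -0.0519, 0.432 and 0.481 in AMD3100 replicates 1 to 3, so replicate 1 showed no rise over the list. The scavenger receptor marco stood at 6.97, 5.22 and 2.24 in DMSO and at 9.81, 14.2 and 13.3 in AMD3100, havcr1 at 4.97 to 6.97 and at 11.2 to 14.7, and the pore-forming gene mpeg1.1 at 2.48 to 4.01 and at 4.60 to 8.41. These levels are low beside mpx, and csf1ra, the macrophage growth factor receptor, overlapped between groups. The summed share of the list was 0.117% to 0.137% in DMSO and 0.120%, 0.212% and 0.121% in AMD3100, and 4 of its 28 entries were at 0 in every injured library. In bulk libraries a different number of cells of a type and a different amount of RNA per cell cannot be told apart.

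Inflammatory cytokine genes took 0.112%, 0.105% and 0.117% of counts in DMSO and 0.0847%, 0.0967% and 0.0809% in AMD3100, lower without overlap (exact two-sided permutation p = 0.1, adjusted p = 1 over 37 lists). Of 11 tested members, 5 were positive, and the median was -0.081, which turned to 0.053 without DMSO replicate 1. The abundant member tnfb, a tumour necrosis factor gene, stood at 281, 307 and 348 scaled CPM in DMSO and at 149, 190 and 165 in AMD3100 (log2 fold change -0.89, SE 0.48, edgeR adjusted p = 0.928). With il11b it was 1 of the 2 tested members that lay below all DMSO libraries, and 0 lay above. Over all tested entries the shares were 5.67% below and 4.66% above, and il11b was also chosen by the rule for not overlapping. Genes of chemotaxis and its receptors also had a lower share, 0.158% to 0.168% in DMSO and 0.155%, 0.153% and 0.127% in AMD3100 (exact two-sided permutation p = 0.1, adjusted p = 1 over 37 lists). Both orders held with mitochondrial genes left out and without replicate 1. Among its 19 members 3 lay below all DMSO libraries and 2 above, beside 5.67% and 4.66% of all entries. The phospholipase plcg2, which acts downstream of immune receptors, stood at 281.2, 156.7 and 136.0 and at 25.23, 39.24 and 124.8 (-1.54, SE 0.46). The integrin subunit gene itgb2 stood at 129 to 138 and at 177, 179 and 142 (0.33), while its partner itgam, at 7.37 to 9.55 and at 0, 0.575 and 5.16, was lower.

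Immediate early genes, which respond within minutes to stimulation, had 7 of 27 members positive and a median of -0.29. The transcription factor atf3 stood at 789.8, 625.5 and 753.1 in DMSO and at 213.1, 455.3 and 557.9 in AMD3100 (-0.82, SE 0.36), and fosl1a at 82.3, 35.9 and 39.4 and at 1.40, 29.9 and 30.3 (-1.18, SE 0.65). The fosl1a value of replicate 1 is at the floor of that library, where 1 count is worth 1.53 CPM before scaling. The list median by library was -1.24, -0.0478 and -0.00726, so the low values were mainly those of replicate 1, and without it the median log2 fold change was -0.043. Genes induced by tissue dissociation, which share members with this list, had 2 of 17 positive and library medians of -1.17, 0.0736 and -0.114, and a median of -0.28 that was -0.057 without replicate 1.

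Of the 34 neutrophil identity genes 4 were lower and 1 higher at an unadjusted edgeR p under 0.05, beside 2.96% and 2.56% over all. Without overlap, 2 lay below all DMSO libraries and 2 above, beside 5.67% and 4.66% of all tested entries. Those below were vamp8 and lect2l, and those above were lgals2a and cebpa. The SNARE gene vamp8, which serves granule fusion, stood at 144.4, 92.42 and 88.60 in DMSO and at 30.84, 67.41 and 79.32 in AMD3100 (-0.83, SE 0.33), and lect2l, a leukocyte chemotactic factor homolog, at 1374, 1301 and 971.4 and at 410.7, 839.2 and 766.6 (-0.85, SE 0.35). The galectin gene lgals2a stood at 6.97, 6.19 and 3.37 and at 21.0, 8.05 and 7.70 (0.98, SE 0.51), and the myeloid transcription factor gene cebpa at 44.1 to 47.9 and at 48.3 to 54.7 (0.13, SE 0.25). Of the 20 protease and matrix genes 3 lay above all DMSO libraries, ctsz among them, and 1 below, beside 4.66% and 5.67% of all tested entries. The 1 below was the metalloproteinase inhibitor timp2b, which stood at 171.0, 159.1 and 143.1 and at 86.92, 79.05 and 115.2 (-0.75, SE 0.25). In the resolution mediator anxa1a the groups overlapped, with 55.44, 69.33 and 63.45 in DMSO and 222.9, 108.7 and 62.62 in AMD3100 (1.03, SE 0.38).

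Markers of other trunk cells varied between libraries in both groups. Skeletal muscle genes took 1.11%, 1.25% and 0.209% of counts in DMSO and 1.82%, 0.338% and 0.556% in AMD3100, with 24 of 43 members positive and a median of 0.15. That median turned to -1.04 without AMD3100 replicate 1, -0.30 without DMSO replicate 3, -0.22 with limma-voom and -0.45 with quality weights. The parvalbumin gene pvalb4 stood at 2.32, 6.19 and 1.92 scaled CPM in DMSO and at 133.2, 2.73 and 67.86 in AMD3100, high in replicates 1 and 3, while the abundant muscle gene actc1b stood at 214, 300 and 23.1 and at 388, 34.2 and 115. Erythroid genes took 0.00408% to 0.00466% in DMSO and 0.00946%, 0.0232% and 0.00419% in AMD3100, with 11 of 13 positive and a median of 1.41, which was 0.56 without AMD3100 replicate 2 and 0.24 over the 6 members left without hemoglobin genes. The globin hbbe1.2 stood at 2.66, 0.53 and 0.16 and at 5.61, 15.95 and 2.37, highest in replicate 2. Mesenchyme, cartilage and notochord genes had 11 of 16 positive and a median of 0.59, which was -0.39 over the 8 members tested after thinning and 0.23 at 10 CPM in 3 libraries. The cartilage collagen col9a1b stood at 1.66, 1.503 and 3.204 and at 4.21, 8.62 and 9.99 (1.95, SE 0.52). In col9a1b the uninjured AMD3100 libraries stood at 19.21, 11.80 and 30.27 and the uninjured DMSO libraries at 0 to 1.27. Of the entries found for these lists, 5 of 56 for muscle, 3 of 24 for erythroid cells and 9 of 43 for mesenchyme were at 0 in every injured library. Skin and epithelium genes took 0.373% to 0.597% in DMSO and 0.333%, 0.738% and 0.440% in AMD3100, and neural and glial genes 0.0518% to 0.0724% and 0.0346%, 0.0594% and 0.0396%. The part of other cells in the differences of named genes was not tested.

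**Figure D4:**
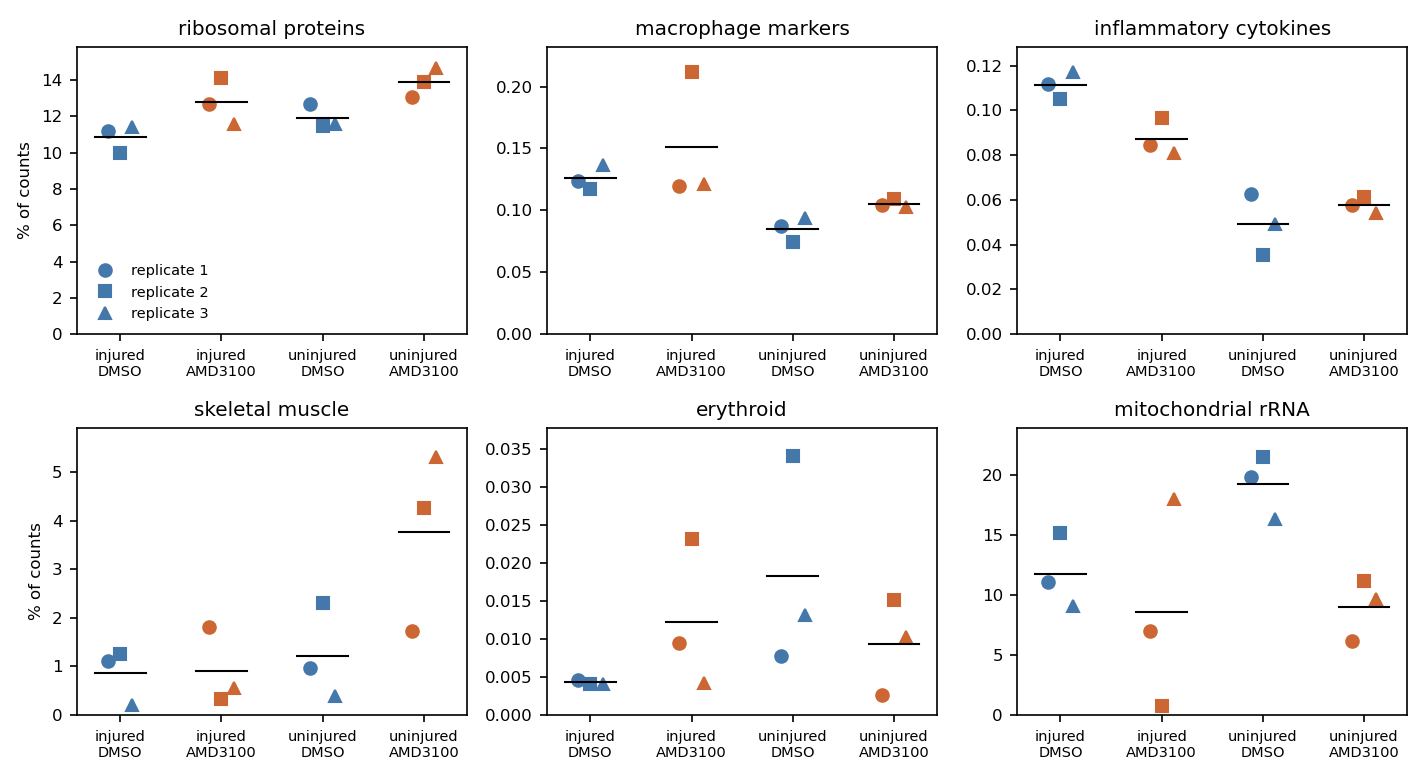
Share of counts (percent) taken by 5 gene lists and by mitochondrial ribosomal RNA in every library, with a line at the mean of each group of 3. Ribosomal protein shares are 9.97% to 11.4% in injured DMSO and 11.6% to 14.1% in injured AMD3100, and mitochondrial ribosomal RNA spans 0.7676% to 17.99% in injured AMD3100.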

How the data were processed

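The authors deposited unnormalized read counts for 31351 entries, 88 of them ERCC spike-ins and 5877 joining overlapping genes. BWA, GRCz11 and DESeq2 1.38 are named in the submitters' processing notes, and collapse of molecular identifiers is not stated there. All 12 libraries, in 4 groups of 3, were fitted with edgeR 4.0.16 (R 4.3.3) after filterByExpr at a minimum count of 10 and total of 15, which left 8453 entries (77 joint, 925 with clone-based names). Libraries were scaled by TMM, and tested by quasi-likelihood with Benjamini-Hochberg adjustment over all entries at 0.05. The common biological coefficient of variation was 0.38. Scaled CPM are TMM-scaled; single-library differences use log2(scaled CPM + 1). Shares of counts of 37 gene lists (1368 of 1452 genes found) were compared by exact permutation tests. An edgeR p-value sets a group difference against the spread between libraries within groups, estimated over all 12 libraries. A permutation p-value sets the observed split of the 6 injured libraries against all splits of them.

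The members, lists and tests were chosen with earlier results of these data known. Named genes were, per direction, up to 8 with the smallest p, 20 CPM or more in the group with the higher mean, and libraries that did not overlap; the smallest p of each list; the 6 highest and 6 lowest of each AMD3100 library (at least 50 CPM); and neutrophil and receptor genes. Clone-based names were not named, apart from the mitochondrial ribosomal RNA entry and the partner in the cxcr4b entry. Others, among them list members given beside a count and the genes called without replicate 3, were picked when their values were known. The text names part of these, and some genes the rule chose are not reported here.

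Replicate numbers are shared between groups in the labels, and same-numbered injured libraries did not deviate together (r = 0.0344, -0.0179 and 0.0279). Alternatives were RLE and upper-quartile factors, DESeq2 1.42.0, limma 3.58.1 voom with and without quality weights, no filter, 10 CPM in 3 libraries, injured libraries only, a replicate block, leaving out mitochondrial and hemoglobin genes or joint entries, thinning, a threshold of 0.1 for the adjusted p, and omission of each injured library. The fit was tested on simulated counts (6.80% of its calls there were false).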

Additional observations from a re-analysis of the deposited data

Results flagged for a closer look

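The ERCC spike-in entries, which entered no comparison, took 0.0436% of counts in injured AMD3100 replicate 1, above the 0.0057% to 0.0159% of the injured DMSO libraries and the 0.0122% and 0.0129% of the other injured AMD3100 libraries. It was noted because it is a signal in data outside the main measurement that exceeded the control level. That library is also the shallowest and has the lowest EGFP level, and how these values relate was not tested.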

How the results depend on the processing

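The count of 0 genes called in injured larvae was also 0 with RLE and upper-quartile factors, limma-voom with and without quality weights, 10 CPM in 3 libraries, injured libraries only, without mitochondrial and hemoglobin or joint entries, after thinning and at an adjusted p under 0.1. With the replicate number as a block it was 0 as well, and no named gene passed. DESeq2 called 1 gene, lower. Without a filter on low counts, 105 of 20264 entries (0.518%) were called, 51 higher and 54 lower. Of these, 15 were not tested with the filter, and in 52 the highest AMD3100 library was at least 4 times the median one. Leaving out single injured libraries gave 0 to 72 genes, 0 to 2 higher and 0 to 70 lower, and 0 to 2 for the difference from uninjured larvae, chosen after the data were seen; the calls came without AMD3100 replicate 3 in each case. Upper-quartile factors moved the median of all genes from -0.00395 to 0.0662. Lists with a lower share without overlap numbered 2, but 4 with mitochondrial genes out of the total and 4 without AMD3100 replicate 1, where lists with a higher share went from 1 to 3. Thinning moved the entries beyond the other libraries to 155 and 212, 81 and 171, and 60 and 233 (higher and lower) in DMSO replicates 1 to 3, to 74 and 295 in AMD3100 replicate 2 and to 92 and 197 in replicate 3. Part of the named genes were chosen for not overlapping, and 0 genes passed the threshold in the main fit. Their direction and side of the threshold were therefore partly fixed in advance. Over 44 named genes and 18 settings, 756 of 784 values kept direction and side of the threshold, 16 passed it and 12 turned sign. Those were log2 fold changes of neutrophil genes with single libraries left out: lyz ran from -0.042 to 1.45, mmp9 from -0.21 to 0.34, mpx from -0.15 to 0.28, il1b from -0.25 to 0.0024, arg2 from -0.31 to 0.15 and cxcr1 from -0.21 to 0.052. The lowest values of lyz and mmp9 and the highest of arg2 came without AMD3100 replicate 1. With upper-quartile factors and thinning cxcr1 was 0.0062 and 0.11. The cause was not tested. Depth limits replicate 1 most, where 1 count is worth 1.53 CPM.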
